A study of Mus musculus with 30 samples.

Results

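Bub1b-depleted mouse embryonic stem cells were compared with a control clone of the same parental line, both grown without doxycycline (Dox), by Illumina bead array. The arrays of each group were taken by their labels, 6 of the 30 arrays of the series, 3 for each group. The first group was Bub1b_R without Dox, cells derived from the Ainv15 line, which expresses the reverse tetracycline transactivator, that carry an shRNA against Bub1b and a Dox-inducible copy of Bub1b which that shRNA cannot target. The second was Ctrl_R without Dox, Ainv15 cells labelled only as Control, with 129P2/OlaHsd given as their strain; the labels give no strain for Bub1b_R. All lines had been kept on mouse embryonic fibroblasts with LIF and Dox at 1 µg/ml; for the arrays they were grown without feeder cells and Dox was withdrawn for 5 days. By design the rescue copy of Bub1b was thus off on the Bub1b_R arrays, and the control had lost Dox for the same time. Several rescue clones were derived for a gene, but the labels do not say whether the 3 arrays of a group were different clones, separate cultures or repeated samples of 1 culture, so each p-value measures the spread between these arrays only. The shRNA and any other difference between the Bub1b_R and Ctrl_R lines cannot be told apart here. The same lines were also measured with Dox, but by design Dox turns on the rescue copy and leaves the shRNA in place. Those arrays therefore cannot separate the shRNA from other differences between the lines either. The control arrays carry other label fields than the Bub1b_R arrays, and whether both were hybridised together is not given in the sources used here, so array batch and line cannot be told apart either.

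Bub1b encodes BubR1, a kinetochore protein of the spindle assembly checkpoint. The checkpoint holds cells in mitosis by keeping the anaphase-promoting complex from its substrates until every chromosome is attached to the spindle. Embryonic stem cells correspond to the pluripotent epiblast before implantation; they leave that state through a formative, post-implantation-like epiblast towards the primitive streak, where Brachyury (T), Mixl1 and Eomes are switched on under Wnt, nodal and FGF signals, or towards the neural fate. The question put to this comparison was which transcripts differ once the cells are short of Bub1b.

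The sequence that defines the Bub1b_R group is the 21-base target of its shRNA, which matched in the knockdown and the rescue constructs and lies outside the coding copy used for rescue. It is printed whole because it is the site at which the shRNA of this group was designed to act.

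Bub1b shRNA target: GCACACTTAGACACATCAGCA

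The arrays of the 6 samples resembled each other within groups. Between 13246 and 13685 of the 25697 probes were detected on an array, and Pearson's r between arrays of a group was 0.994 to 0.996 across the 15151 probes tested. All 10 embryonic stem cell markers examined, Pou5f1, Sox2, Nanog and Esrrb among them, were detected on every array of both groups. Of 7 defining fibroblast markers, Col1a2, Col3a1, Postn and Lum were detected on no array of either group, Col1a1 and Thy1 on all 6, and Dcn on the 3 Bub1b_R arrays alone. Neural Pax6 and the trophoblast genes Elf5 and Tpbpa were detected on no array, and neural Sox1 on 1 Bub1b_R array.

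The targeted mRNA was lower in Bub1b_R. The log2 intensity of the Bub1b probe was 9.72, 9.64 and 9.75 on the 3 Bub1b_R arrays and 10.27, 10.44 and 10.40 on the 3 Ctrl_R arrays. The groups did not overlap, and the difference was −0.67 on the log2 scale (SE 0.0780, n = 3 and 3), a 1.59-fold lower level with an adjusted p of 1.05e-07 (limma). The size depended on the scaling between arrays, since with each array scaled to 1 median in place of quantile normalization the difference was −0.46 and fell short of the 1.5-fold limit used throughout. The position of the probe within the transcript is not given in the sources used here, so it is unknown whether the probe can read the rescue copy. With Dox the same probe was also lower in Bub1b_R, by a log2 difference of −0.70 (adjusted p = 1.08e-07, limma).

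**Figure D1:**
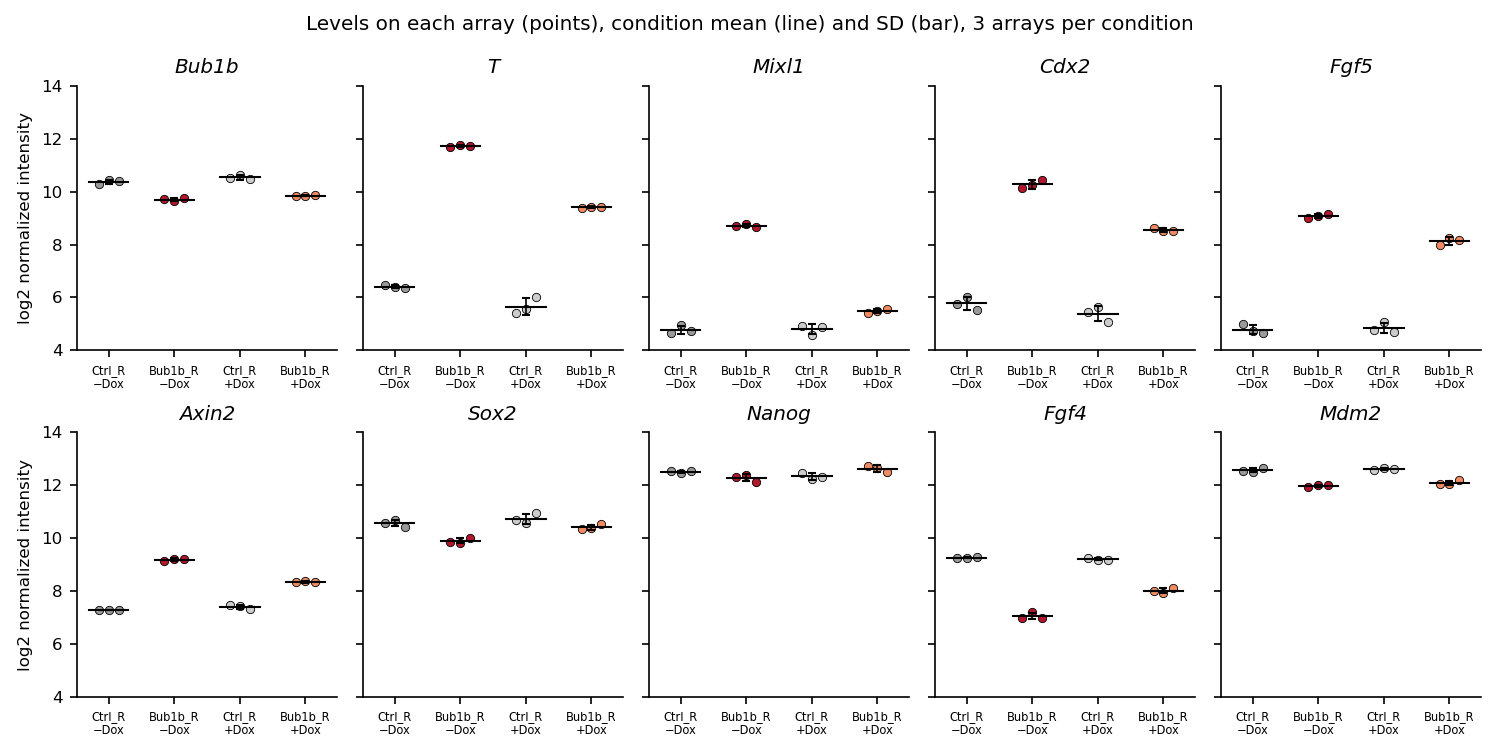
Log2 normalized intensity of 10 genes on each of the 12 arrays of Bub1b_R and Ctrl_R without and with Dox (points), with the mean (line) and SD (bar) of 3 arrays. T, Mixl1, Cdx2, Fgf5 and Axin2 stood above Ctrl_R on all 3 Bub1b_R arrays without Dox. Fgf4, Bub1b, Sox2, Mdm2 and Nanog stood below it on all 3, though the difference of Nanog missed the test.

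A transcript was called where its adjusted p was under 0.05 over all probes tested and the difference was at least 1.5-fold; other members are given by value only. Of the 15151 probes, 3423 (22.6%) were called, 1653 higher and 1770 lower in Bub1b_R. With the brightest tested probe standing for a gene, 1277 of 11177 genes (11.4%) were higher and 1393 (12.5%) lower, and these shares are the background for every list below. The median difference over all genes was −0.00. The split between directions depended on the scaling: with median scaling 64.8% of the called probes were higher in place of 48.3%, and the median of all probes moved from −0.01 to 0.10. The large differences lay mostly on the higher side, where 94 genes passed 4-fold and 22 passed 8-fold, while on the lower side 28 passed 4-fold and 0 passed 8-fold. Of the called probes, 3403 had groups that did not overlap, as had 9140 of all 15151 tested. Of the 11177 genes, 140 entered the test only through the arrays of Bub1b_R without Dox and 177 only through those of Ctrl_R without Dox, and no list member called below was among them.

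The highest transcripts belonged mainly to the primitive streak. T, the T-box factor of nascent mesoderm, led them, with log2 intensities of 11.69, 11.75 and 11.73 in Bub1b_R and 6.46, 6.40 and 6.35 in Ctrl_R. The difference of 5.32 (SE 0.109, adjusted p = 3.33e-21, limma) was a 40.0-fold higher level, and the T probe was detected in Ctrl_R too. Among the 12 highest transcripts by rule were also Cdx2 (4.51), Evx1 (4.47), Fst (4.47), Rspo3 (4.21), Fgf8 (3.95) and Sp5 (3.88), and Fgf5 and Mixl1, whose folds are given as bounds below. Of these, Rspo3 was detected on only 1 of the 3 Ctrl_R arrays, so its size rests partly on signal near background. The remaining 3 were Klhl6 and the less characterized D030013I16Rik (3.92) and LOC100044289 (4.10). Klhl6 was read here by the probe with the larger fitted difference (4.73), whereas its brightest probe (4.41) stood for it in the later test of the change between the Dox states. The probe used here was not detected in Ctrl_R, so the fold of Klhl6 is a bound. Such bounds set the mean of the bright group against, on each array of the dim group, the higher of the probe's own value and the dimmest detected signal; Klhl6 was at least 18.03-fold higher.

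Of 30 primitive streak and mesoderm genes listed, 23 were tested, 6 were not detected and 1 had no probe. Of those tested, 19 were higher and 0 lower, and the median difference over the list was 1.92. All 19 had groups that did not overlap, as had 6980 of all 11177 genes. The Mixl1 probe, for a homeobox factor of the streak, read 8.72, 8.77 and 8.68 in Bub1b_R and 4.67, 4.95 and 4.73 in Ctrl_R, where it was not detected; the gene was at least 9.96-fold higher (adjusted p = 2.62e-19, limma). Evx1, a homeobox factor of the posterior streak, read 9.97, 10.00 and 10.06 against 5.58, 5.71 and 5.32. Lhx1 was at least 5.71-fold and Eomes, a T-box factor of early mesendoderm, at least 2.64-fold higher. Mesp1, the factor of the earliest cardiac mesoderm, differed by 2.67, Isl1 by 2.60, the ligand gene Wnt3 by 2.13, Gsc by 1.57 and Snai1, a repressor of E-cadherin, by 1.42. Pdgfra, a receptor of paraxial mesoderm, differed by 1.39 and Bmp4, the ligand that induces posterior mesoderm, by 1.41. Nodal (0.28), Kdr (−0.03), Tbx6 (−0.03) and Cdx1 (0.00) did not pass. Bulk arrays cannot separate fewer cells of a type from less RNA in each cell, here or in any list.

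The promoters of T and Evx1 are shown as those of 2 genes at the head of the list whose signal pathway, Wnt, acts through factors of the Tcf/Lef family. They are RefSeq sequences of mouse build GRCm38.p6, from 250 bases before to 50 after the start of the gene, T at chr17:8434173-8434472 and Evx1 at chr6:52313248-52313547, both on the plus strand. Capitals mark the 1 match in each to TTTGAA, searched on both strands and found here as its reverse complement, which starts 235 bases before the start of T and 216 before that of Evx1.

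T promoter: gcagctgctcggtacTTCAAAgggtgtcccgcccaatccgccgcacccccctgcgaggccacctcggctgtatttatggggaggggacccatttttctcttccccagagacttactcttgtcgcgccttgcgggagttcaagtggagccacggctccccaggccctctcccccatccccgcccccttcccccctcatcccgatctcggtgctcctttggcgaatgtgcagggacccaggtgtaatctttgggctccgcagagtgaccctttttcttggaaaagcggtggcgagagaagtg
Evx1 promoter: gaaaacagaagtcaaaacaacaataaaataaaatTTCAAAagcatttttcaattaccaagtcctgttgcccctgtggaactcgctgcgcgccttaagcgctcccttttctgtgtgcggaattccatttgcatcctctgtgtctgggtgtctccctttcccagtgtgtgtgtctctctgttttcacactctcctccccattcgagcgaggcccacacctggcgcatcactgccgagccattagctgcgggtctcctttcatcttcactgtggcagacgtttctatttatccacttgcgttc

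The match is a description of these letters only: 9.94% of the promoters of genes called higher held it, 12.3% of those called lower and 11.6% of all promoters of tested genes.

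The signalling lists around the streak held higher members too, but they share genes with other lists, so their counts are not separate from those. T of the Wnt list and Fst and Bmp4 of the BMP and nodal list also stood on the streak list. Fgf5 of the FGF list also stood on the formative list, and the lower Fgf4 and Tdgf1 on the naive list. Of 19 tested genes of Wnt feedback and targets, 7 were higher and 1 lower, with a median of 0.37. Axin2, the feedback scaffold most used as a readout of β-catenin, read 9.14, 9.23 and 9.21 in Bub1b_R and 7.27, 7.28 and 7.27 in Ctrl_R, a difference of 1.92 (SE 0.0717, adjusted p = 1.54e-16, limma). Ccnd2, a cyclin, differed by 2.01 and Notum, a secreted Wnt inhibitor, by 1.49; Lef1, a partner of β-catenin on DNA, was at least 2.21-fold higher, and the secreted antagonist Sfrp1 was lower (−0.97). Of 17 tested FGF and ERK feedback genes, 8 were higher and 1 lower, with a median of 0.47. The ERK phosphatase gene Dusp4 read 11.63, 11.62 and 11.67 against 9.08, 8.99 and 9.07, a difference of 2.59, and Dusp6 differed by 1.80. Both groups of values were tight, and neither phosphatase overlapped between the groups. Spry4, another feedback inhibitor, did not pass (0.47). The gene called lower was Fgf4, which encodes the autocrine FGF of embryonic stem cells, with 6.99, 7.20 and 6.98 in Bub1b_R against 9.25, 9.27 and 9.28 in Ctrl_R (−2.21, SE 0.0949, adjusted p = 1.8e-15, limma).

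Of 22 tested genes of the BMP and nodal pathway, 7 were higher and 1 lower, with a median of 0.23. The higher members included Fst, whose product binds activin, the BMP target Msx1 (3.33), the HLH inhibitors Id3 (2.15) and Id1 (1.23), the nodal target Lefty2 (1.02), and Bmp4. Msx1 spread widely in Ctrl_R, from 4.92 to 6.16, and still lay below its lowest Bub1b_R value of 8.79. The lower member was Tdgf1, the nodal co-receptor Cripto (−0.85). Of 18 tested genes of the LIF and STAT3 list, 5 were higher, Myc, Il6st, Gbx2, Junb and Osmr, and 2 lower, Icam1 and Pim3, with a median of 0.09. Myc was not detected in Ctrl_R and was at least 1.84-fold higher, while Icam1, an adhesion molecule, differed by −1.24.

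**Figure D2:**
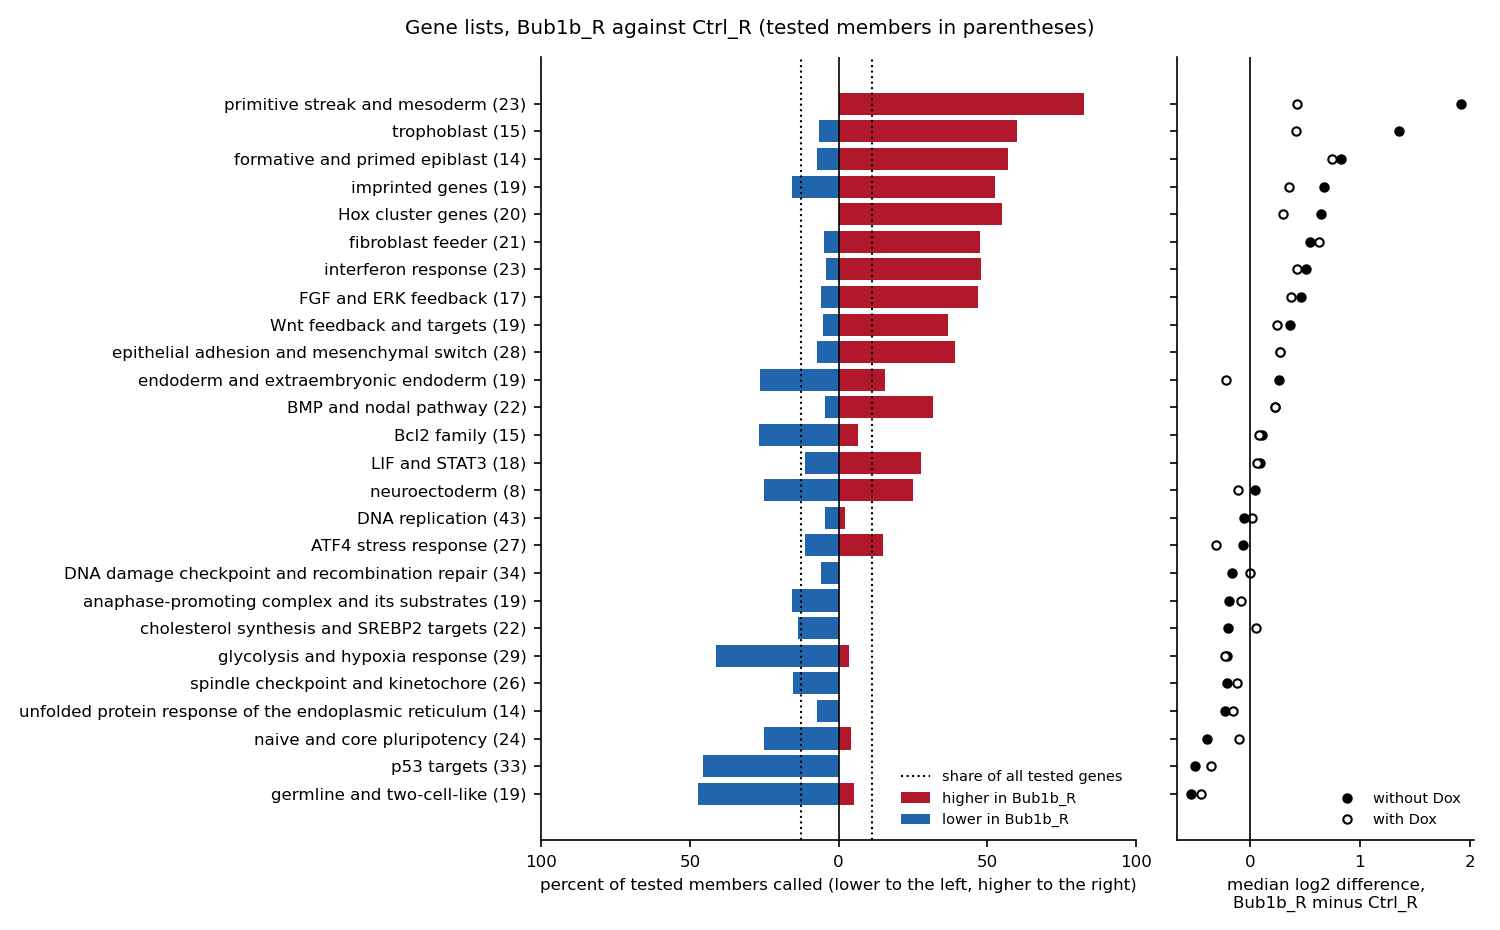
Left, the percent of tested members of each gene list called higher (right of 0) or lower (left of 0) in Bub1b_R without Dox, with dotted lines at the 11.4% and 12.5% of all tested genes; the Y-linked list, with 3 tested members, is left out. Right, the median log2 difference of each list without Dox (filled) and with Dox (open). The primitive streak list has the highest median without Dox, 1.92, against 0.43 with Dox.

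The formative list was shifted in the same direction as the streak list and the naive list in the other. Of 14 tested formative and primed epiblast genes, 8 were higher and 1 lower, with a median of 0.83. Fgf5, the standard marker of this state, read 9.01, 9.09 and 9.14 in Bub1b_R and 4.98, 4.73 and 4.65 in Ctrl_R, where it was not detected, and was at least 12.8-fold higher. Dnmt3b, a de novo DNA methyltransferase, read 13.74, 13.73 and 13.72 against 12.24, 12.21 and 12.22, a 2.84-fold higher level. The groups of both genes were far apart relative to the spread between their arrays. Wnt8a differed by 2.83, Sall2 by 1.86 and the POU factor gene Pou3f1 by 0.98, and Zic2 was at least 3.2-fold higher. Otx2, which drives entry into the formative state, did not pass (0.13), and Fgf15 was lower (−0.95).

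Of 24 tested genes of naive and core pluripotency, 1 was higher and 6 lower, and the median was −0.39. The lower members were Fgf4, Tdgf1, the chromatin factor Utf1 (−0.73), Mybl2 (−0.73), Tcl1 (−0.72) and Sox2 (−0.67); the higher one was Gbx2 (0.81), a homeobox target of LIF. Sox2, the partner of Oct4, read 9.87, 9.83 and 10.02 in Bub1b_R and 10.59, 10.70 and 10.44 in Ctrl_R. Nanog read 12.33, 12.39 and 12.14 against 12.53, 12.45 and 12.55. Its groups did not overlap, but its difference of −0.23 did not pass (adjusted p = 0.0620, limma). Pou5f1, which encodes Oct4 (−0.40), and Esrrb (−0.53) had groups that did not overlap but missed the fold limit, and the naive markers Zfp42 (0.15) and Dppa5a (0.07) did not pass. Tbx3 (−0.44) and Klf4 (−0.38) missed the fold limit as well. With median scaling 2 members were called lower in place of 6, those of Sox2, Tcl1 and Utf1 were among the calls lost and the sign of Nanog turned (0.0159).

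Among the lists of other fates, trophoblast had 9 of 15 tested members higher and 1 lower, with a median of 1.36, or 1.25 with undetected genes at their bounds. Cdx2, shared with the streak list, read 10.13, 10.27 and 10.45 in Bub1b_R and 5.76, 6.03 and 5.54 in Ctrl_R. The keratin genes Krt8 (2.02), Krt18 (1.43) and Krt19 (1.36) and Gata3 (1.82) were higher and Ascl2 was lower (−0.81), whereas the trophoblast markers Elf5 and Tpbpa were detected on no array. Of the 9 higher members, Cdx2, Eomes and Bmp4 also stood on the streak list. Of 19 tested endoderm genes, 3 were higher (Krt8, Cxcr4 and Dab2) and 5 lower, among them Amn (−1.25) and Apoa1, and with median scaling the counts became 5 and 2. The endoderm regulators Gata6 (0.35) and Sox17 (0.27) did not pass, and Gata4 was detected on 1 array of each group. Of 8 tested neuroectoderm genes, 2 were higher, the intermediate filament genes Nes (1.58) and Nefm (1.27), and 2 lower, the Notch ligand gene Dll1 (−2.14) and Crabp1 (−1.68); 10 of the 20 listed were not detected.

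Of 36 Hox cluster genes, 20 were tested and 16 were not detected. Of those tested, 11 were higher and 0 lower, with a median of 0.65, or 0.37 with undetected genes at their bounds. Hoxd10, a posterior patterning factor, read 7.81, 8.03 and 8.06 in Bub1b_R and 4.79, 4.95 and 5.08 in Ctrl_R, where it was not detected, and was at least 5.90-fold higher. Hoxc6 differed by 2.82, Hoxc9 by 2.65 and Hoxd8 by 2.34. Of the 11, 5 were not detected in Ctrl_R, and of these Hoxb5 was the dimmest, with a bound of at least 1.10-fold.

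Few genes of the machinery in which BubR1 acts were called. Of 33 spindle checkpoint and kinetochore genes, 26 were tested, of which 4 were lower and 0 higher, with a median of −0.21, so that the share lower, 15.4%, lay near the 12.5% of all genes. Apart from Bub1b they were Ttk, the checkpoint kinase Mps1, Zwilch (−0.91), a part of the complex that brings dynein to kinetochores, and Spc25 (−0.73), of the microtubule-binding Ndc80 complex. Ttk was dim, with 5.00, 5.66 and 5.29 in Bub1b_R against 6.63, 6.34 and 6.30 in Ctrl_R (−1.11), and was detected on 1 of the 3 Bub1b_R arrays. The checkpoint effector Mad2l1 (0.11), its partner Bub3 (0.35) and the activator of the anaphase-promoting complex Cdc20 (0.15) did not pass. With median scaling the list median was −0.02 and 2 members were lower.

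Of 19 tested genes of the anaphase-promoting complex and its substrates, 3 were lower (15.8%, near the 12.5% of all genes) and 0 higher, with a median of −0.19. These were Ube2c, the ubiquitin-conjugating enzyme of the complex, securin (Pttg1, −1.13) and separase (Espl1, −0.70). Ube2c read 5.63, 5.10 and 5.48 against 6.70, 6.71 and 6.68 (−1.29) and was detected on 2 of the 3 Bub1b_R arrays. Cyclin B1 (Ccnb1) did not pass (−0.14). With median scaling 3 members were higher and 2 lower. Among replication and repair genes the shares called were below those of all genes: of 43 tested DNA replication genes Tyms was higher (0.69) and Pold2 and Cdc7 were lower (both −0.66), and of 34 tested damage checkpoint and recombination genes Rad51ap1 (−0.68) and Fanci (−0.60) were lower. With median scaling the calls of Pold2 (−0.41), Cdc7 (−0.44), Rad51ap1 (−0.52) and Fanci (−0.42) were lost, and the medians of the replication and the damage list turned from −0.05 to 0.12 and from −0.17 to 0.03. The damage kinase genes Chek1 (−0.12) and Atm (0.08) did not pass.

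Targets of p53, the transcription factor that answers DNA damage and long mitosis, were lower or not called. Of 33 tested, 15 were lower (45.5%) and 0 higher, 30 of the 33 differences were negative and the median was −0.50. Ephx1, an epoxide hydrolase, read 8.62, 8.85 and 8.95 in Bub1b_R and 10.50, 10.63 and 10.47 in Ctrl_R (−1.73, SE 0.0896, adjusted p = 5.81e-14, limma). The p53 inhibitor genes Mdm4 (−1.26) and Mdm2 (−0.59), the kinase gene Plk3 (−1.11) and the death genes Pmaip1 (−1.15), Bbc3 (−0.66) and Fas (−0.59) were lower. Cdkn1a, the p21 cell cycle inhibitor, read 11.10, 11.12 and 11.23 against 11.46, 11.39 and 11.38; its groups did not overlap but the difference (−0.26) missed the fold limit, as did that of Trp53 itself (0.24). With median scaling 7 members were lower, the list median was −0.27 and the call of Mdm2 was lost (−0.37). Of 15 tested genes of the Bcl2 family, 4 were lower, Pmaip1, the BH3-only gene Bmf (−0.93), the survival gene Mcl1 (−0.85) and Bbc3, and Bok was higher (1.02), with a median of 0.11.

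**Figure D3:**
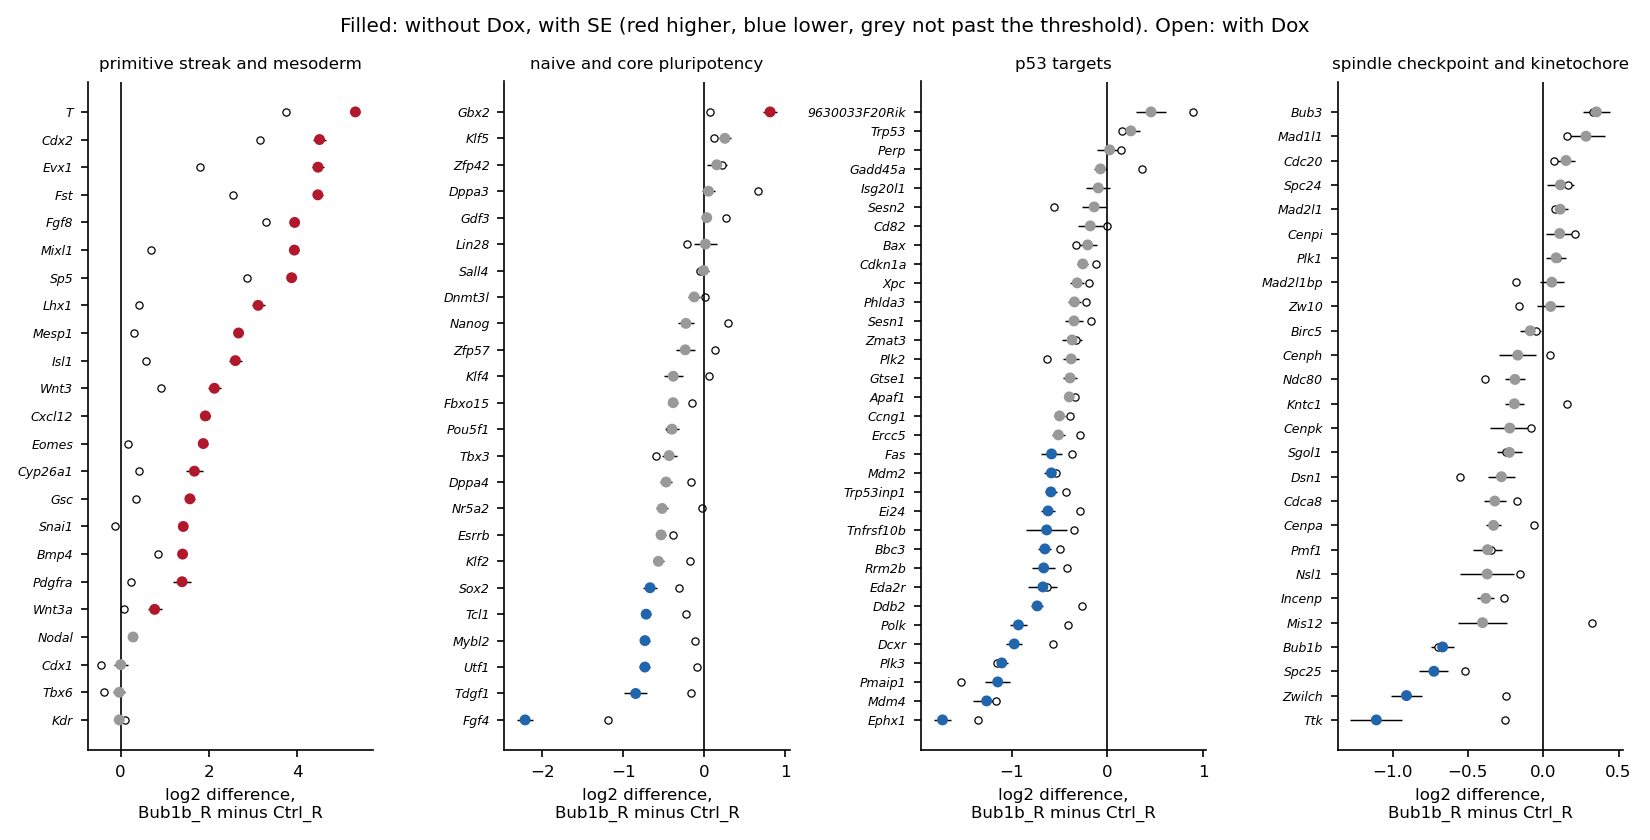
Log2 difference between Bub1b_R and Ctrl_R for each tested member of 4 gene lists, without Dox with SE (filled; red higher, blue lower, grey not past the threshold) and with Dox (open). The scales differ between panels. In the primitive streak list 19 of 23 members lie to the right and past the threshold without Dox, in the p53 list 15 of 33 lie to the left.

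The ATF4, unfolded protein and cholesterol lists had shares called near or below those of all genes, 11.4% higher and 12.5% lower. Of 27 tested genes of the ATF4 stress response, 4 were higher (14.8%) and 3 lower (11.1%). Atf3 (1.19), Wars, Atf5 and Slc7a3 were higher, while Ddit3 (−1.78), which encodes CHOP, Nupr1 (−1.35) and the pseudokinase gene Trib3 (−0.82) were lower. Ddit3 read 8.95, 8.95 and 8.86 against 10.58, 10.85 and 10.67, with no overlap, and Atf4 itself did not pass (−0.52). The list median of −0.06 became 0.16 with median scaling. In the unfolded protein response 1 of 14 tested genes (7.14%) was lower (Herpud1, −0.68, a call lost with median scaling, −0.48) and 0 were higher. Of 22 tested cholesterol genes 3 (13.6%) were lower (Insig1, −0.94, Dhcr7 and Cyp51) and 0 higher, where median scaling gave 1 lower and 2 higher.

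Of 29 tested genes of glycolysis and the hypoxia response, 12 were lower (41.4%) and 1 higher, with a median of −0.21. The lower members were glycolytic enzyme genes, Hk1 (−1.49), Aldoc (−1.42) and Pgk1 (−1.10) among them, and hypoxia targets outside glycolysis, Ndrg1 (−1.17) and the angiogenic factor Vegfa (−1.15). Car9, a carbonic anhydrase, was not detected in Bub1b_R and was at least 1.84-fold lower there. Hk1 read 6.44, 6.07 and 6.49 against 7.97, 7.67 and 7.84. The higher member was the enolase gene Eno3 (0.92), and Gapdh did not pass (−0.12).

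The 12 lowest transcripts by rule came from no single list. Dnaic1, a dynein chain of motile cilia, had the most negative difference (−2.71, SE 0.0691, adjusted p = 1.26e-19, limma), followed by Tnfrsf13c (−2.58), Rab3il1 (−2.56), 1190002H23Rik (−2.39), Dmrtc2 (−2.38), Aurkc (−2.38), Mist1 (−2.27), Igsf21 (−2.24), Gdf15 (−2.22), Bhlhb8 (−2.21) and Fgf4. Mist1 and Bhlhb8 are older symbols of a single gene, a basic helix-loop-helix factor of secretory cells, read by separate probes that gave like values. The twelfth was a dim probe of Actb (−2.32, SE 0.480), whose gene was higher at its brightest probe (0.86) and whose mean over 5 tested probes was −0.82, so no direction is given for Actb.

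Of 19 tested germline and 2-cell-like genes, 9 were lower (47.4%) and 1 higher, with a median of −0.54. Dmrtc2, a DM-domain factor of the testis, read 5.85, 5.86 and 6.22 in Bub1b_R and 8.40, 8.20 and 8.47 in Ctrl_R, and Aurkc, the meiotic Aurora kinase, read 5.59, 5.58 and 5.48 against 8.14, 7.85 and 7.81. The meiotic cohesin genes Smc1b (−1.78), Stag3 (−0.98) and Rec8 (−0.96), the RNA-binding Dazl (−1.31), Piwil2 (−1.26) and Tcstv1 (−1.43) were also lower, and Nanos3 was higher (1.13). Of 40 listed, 13 were not detected and 8 had no probe. Of 19 tested imprinted genes, 10 were higher and 3 lower, with a median of 0.68, or 0.56 with the undetected Dcn at its bound. Peg3 (1.63) and Igf2, a growth factor, were higher, as was Peg10 (1.25), and Slc22a18 (−1.61) and Nnat (−1.02) were lower. Igf2 read 14.45, 14.58 and 14.58 against 13.23, 13.15 and 13.10, a difference of 1.37.

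Interferon response genes were called higher more often than lower. Of 23 tested, 11 were higher (47.8%) and 1 lower, with a median of 0.51. Usp18, a deubiquitinase induced by interferon, read 8.15, 8.12 and 8.25 in Bub1b_R and 5.06, 4.93 and 5.22 in Ctrl_R, where it was not detected, and was at least 6.82-fold higher. Oasl2, an oligoadenylate synthetase-like gene, read 9.04, 9.05 and 9.05 against 6.10, 5.57 and 6.37. Gbp2 (2.17), the transcription factor gene Irf1 (1.94) and the immunoproteasome gene Psmb8 (1.44) were higher too, and Ifi30, a lysosomal thiol reductase, was lower (−1.90).

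Markers of fibroblasts and of cell shape were higher on the same arrays as the streak genes. Of 21 tested genes of the feeder list, 10 were higher (47.6%) and 1 lower, with a median of 0.55, and the summed linear intensity of the 21 was 29124 to 29613 in Bub1b_R and 15272 to 15628 in Ctrl_R. The higher members included Tagln (1.90), Vim (1.72), Acta2 (1.51) and Col1a1 (1.33), several of which mesoderm also expresses, and Thy1 was lower (−0.80). Of the 7 defining markers, Col1a1 and Dcn, the latter detected in Bub1b_R alone, were higher, Thy1 was lower, and Col1a2, Col3a1, Postn and Lum were detected on none of the 6 arrays. The part of remaining feeder cells in any result was not tested. Of 28 tested epithelial and mesenchymal genes, 11 were higher and 2 lower, with a median of 0.27. Mmp9 (1.56), Cd44 (1.56) and Zeb2 (1.43) were higher beside Snai1 and Vim, and so were the epithelial genes Krt8, Krt18, Dsp, Grhl2 and Esrp1. Of the 3 tested probes of Cd44, 2 were positive, and the lowest value was −0.11. Of 3 tested Y-linked genes, Eif2s3y (−1.07) and Ddx3y (−0.62) were lower and Uty did not pass (−0.13); the call of Ddx3y was lost with median scaling (−0.45). The part of a loss of the Y chromosome in some cells was not tested.

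The same lines were measured with Dox, when the rescue copy was on by design, on 6 further arrays that share none with the comparison above. With Dox, 769 genes (6.88%) were higher and 720 (6.44%) lower. Of the genes called without Dox, 47.2% were called in the same direction with Dox, 84.6% of those called with Dox were called in the same direction without, and 0 had opposite calls. Across the probes the differences correlated with r = 0.84 (Spearman 0.77) and a slope of 0.61, a description over 15151 probes which share the lines and are not replicates. The difference between lines was also compared directly between the Dox states: it was more positive without Dox for 330 genes (2.95%) and more negative for 292 (2.61%).

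Most of the streak list differed between the Dox states. With Dox 10 of its 23 tested members were higher, with a median of 0.43, and for 17 of the 23 the difference between the lines was greater without Dox. Mixl1 read 5.41, 5.48 and 5.56 in Bub1b_R with Dox and 4.94, 4.60 and 4.87 in Ctrl_R with Dox; it was detected on 1 of these 6 arrays, so no size is given for its difference with Dox or for the change. Lhx1 and Eomes were detected on none of the 6 arrays with Dox. Snai1, detected on all 12 arrays, did not pass with Dox (−0.13) and changed by 1.55; Mesp1 did not pass either (0.29), and was detected on no Ctrl_R array with Dox. T still differed by 3.76 with Dox and Evx1 by 1.81, both less than without it, and Cxcl12, a chemokine gene, differed alike (1.92 and 1.93). In Bub1b_R with Dox the T probe read 9.37, 9.44 and 9.43, above the 5.41, 5.56 and 6.00 of Ctrl_R with Dox.

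**Figure D4:**
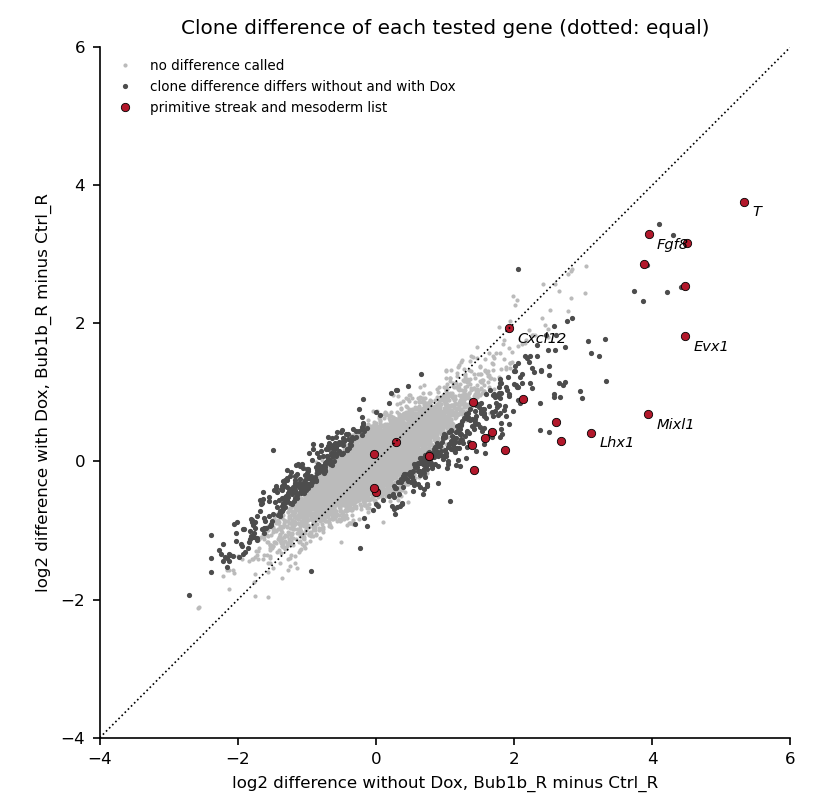
Log2 difference between Bub1b_R and Ctrl_R of each of the 11177 tested genes without Dox (x axis) and with Dox (y axis); red points are the 23 tested primitive streak and mesoderm genes, dark points are genes whose difference was called different between the Dox states, and the dotted line marks equal differences. By their fitted values, Mixl1, Evx1 and Lhx1 lie far below the line and Cxcl12 on it.

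Counts for the other lists varied. The formative list kept 8 higher members and 1 lower with Dox, 7 of the 8 being shared, with a median of 0.75. The naive list had 1 higher and 2 lower members with Dox, and for 5 members, Fgf4 (−1.02), Tdgf1, Utf1 and Mybl2 among them, the difference was more negative without Dox. The p53 list had 6 members lower with Dox and 1 higher, 5 of the 6 were among the 15 lower without Dox, and for 0 members did the difference differ between the Dox states. The hypoxia and glycolysis list likewise had 10 lower and 1 higher with Dox and 0 members that differed, and the feeder list had 11 higher and 1 lower with Dox. In the ATF4 list 0 members were higher and 8 lower with Dox, and for 6 members the difference was more positive without Dox, Atf3 (1.17) and Atf5 (1.14) among them. In the spindle list 1 member, Bub1b, was lower with Dox, and its difference between the lines was alike in both Dox states (change 0.03, adjusted p = 0.905, limma), while those of Ttk (−0.85), Mis12 (−0.72) and Zwilch (−0.66) were more negative without Dox.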

How the data were processed

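Total RNA as biotinylated cRNA was hybridised to Illumina Mouse WG8-V2 BeadChips. The authors deposited, for each probe and array, a background-subtracted intensity that was not normalized between arrays, and a detection p-value; the submitters' processing notes name lumi, with no version. The normalization used by the authors is not given in the sources used here; the methods name a Student test for experiments in general, without saying whether it was applied to the arrays. A spreadsheet had turned 14 detection p-values of Bub1b_R without Dox replicate 2 into dates; 6 were converted back and 8 took the p-value of the probe nearest in signal. The number of deposited columns that matched no sample was 0.

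All 30 arrays were background-corrected, quantile-normalized and put on a log2 scale with neqc (offset 16; limma 3.58.1, statmod 1.5.0, R 4.3.3). Probes with a detection p-value under 0.05 on at least 3 arrays were tested. A single limma fit of 10 condition means (20 residual and 3.38 prior degrees of freedom) gave each comparison, with Benjamini-Hochberg adjustment over all 15151 probes and a limit of 1.5-fold. A gene was read by its brightest tested probe, while the 12 highest and 12 lowest transcripts were ranked by the probe with the largest difference. Probes of a gene did not always give like sizes. The smallest values were 0.92 for Oasl2, 1.40 for Usp18, 0.45 for Bok, −0.38 for Pmaip1 and −0.19 for Slc22a18. Of 4 tested probes of Tyms 3 were positive, with −0.05 as the lowest value. Values of 1 probe are not comparable with those of another. Precision is limited by the 3 arrays per group, and depth does not apply to arrays.

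Replicate numbers did not pair the samples: the correlation of same-numbered arrays' deviations was 0.08, 0.04 and −0.03 without Dox. The fit was also run on simulated data, with independent noise added to condition means. That run cannot speak to differences between lines, array batch or dependence between the arrays of a group.

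The comparison and the 27 gene lists were chosen with earlier results of these data known. Genes named were Bub1b, up to 4 members of each list with the largest difference past the threshold, the lists' defining markers and others needed to describe a list by value, and the 12 highest and 12 lowest transcripts detected on all 3 arrays of a group. Alternatives were the background correction, scaling to the median, the arrays normalized together or fitted, the offset, the detection filter, a replicate block, the fold limit, the probe rule, the methods' t-test (a Student test per probe) and leaving out each array. Promoters and chromosomes came from RefSeq tables of GRCm38.p6, matched by symbol (Python 3.11.15, pandas 2.3.3). Symbols that a spreadsheet had turned into dates were left unnamed.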

Additional observations from a re-analysis of the deposited data

Results flagged for a closer look

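Of 116 genes named by rule, 45 had a difference between Bub1b_R and Ctrl_R that itself differed without and with Dox. The limma test of that change gave adjusted p from 6.82e-13 to 0.0251, at least 1.5-fold. The 116 were Bub1b, the top members of each list, the defining markers and the highest and lowest transcripts. Genes named only to describe a list, Snai1, Atf5, Mis12 and Mybl2 among them, are outside this count. The values below are the log2 difference without Dox minus that with Dox.

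It was more positive without Dox for 28. Among factors and ligands of the primitive streak these were Mixl1 (3.26), Evx1 (2.66), Eomes (1.70), T (1.56), Cdx2 (1.35), Sp5 (1.02) and Fgf8 (0.65). Among genes of Wnt, FGF and BMP signalling they were Msx1 (2.17), Fst (1.93), Rspo3 (1.75), Fgf5 (1.01), Axin2 (0.98), Dusp4 (0.98), Dusp6 (0.89) and Ccnd2 (0.70). Genes of the cytoskeleton and matrix were Tagln (0.87), Vim (0.79), Mmp9 (0.79) and Krt8 (0.64). The naive and LIF list gene Gbx2 changed by 0.75. The others were Klhl6 (1.88), Usp18 (1.54), Atf3 (1.17), D030013I16Rik (1.07), the endoderm regulator Gata6 (0.99), not called without Dox, Gata3 (0.83), Hoxd8 (0.81) and LOC100044289 (0.66). Mixl1, Eomes, Fgf5, Klhl6 and Usp18 were detected on no Ctrl_R array in either Dox state, and Fst, Gata3 and LOC100044289 on none with Dox. Their values are fitted against background and give no size. In Bub1b_R with Dox, Eomes was detected on no array and Mixl1 on 1. Detection in Ctrl_R was partial for others, such as Rspo3, on 1 array in each Dox state, and Cdx2, on 1 array with Dox. The sizes of such changes rest partly on signal near background.

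It was more negative without Dox for 17. Germline genes and pluripotency genes among these were Aurkc (−1.32), Fgf4 (−1.02), Dmrtc2 (−0.99), Tcstv1 (−0.99), Smc1b (−0.86), Tdgf1 (−0.68) and Utf1 (−0.65). Mitotic genes were Ube2c (−1.02), Ttk (−0.85) and Zwilch (−0.66). The others were Mist1 (−0.99), Crabp1 (−0.96), Igsf21 (−0.91), 1190002H23Rik (−0.79), Dnaic1 (−0.78), Bhlhb8 (−0.77) and Slc22a18 (−0.65). Mist1 and Bhlhb8 are probes of a single gene. Of these 17, Ttk and Mist1 were detected on 1 and Ube2c on 2 of the 3 Bub1b_R arrays without Dox.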

How the results depend on the processing

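The count of 3423 probes without Dox became 1175 with an offset of 200, 1222 at 2-fold and 8013 with no fold limit; that of 1923 with Dox became 1220 with an offset of 50, 495 with an offset of 200, 503 at 2-fold and 6052 with no fold limit; and that of 780 for the change between the Dox states became 434, 119, 132 and 1847 under these 4 settings. A larger offset shrinks the fold of dim probes by construction. With the replicate number as a block the counts were 3424, 1924 and 776 and Bub1b differed by −0.67. The block changed no call among the 116 genes named by rule. Other genes, named only to describe a list, were not followed singly under the alternatives. Leaving out 1 array at a time gave 3416 to 3550, 1954 to 2011 and 679 to 817 probes, −0.72 to −0.63 for Bub1b, 0.82 to 0.84 for the correlation between the Dox states and 26 to 27 of the 27 lists with the sign of their median. With median scaling 24 lists kept it, the medians of the ATF4, DNA replication and damage repair lists turning positive (0.16, 0.12 and 0.03); other settings kept 25 to 27. The methods' t-test called 3249 probes without Dox after Benjamini-Hochberg adjustment. Bub1b missed the limit with median scaling (−0.46), an offset of 200 (−0.57) and the 2-fold limit (−0.67). The correlation was 0.68 without background correction. Of 1969 values of the 116 genes named by rule, under these alternatives, 88 lost their call, 8 gained it and 5 changed sign. The changes of sign were in Nanog with median scaling (0.0159), Actb over the mean of its probes (−0.82), and Gata4. The values of Gata4, not called, ranged from −0.17 to 0.0855 as 1 array was left out. They were positive without Bub1b_R −Dox replicate 1, Bub1b_R −Dox replicate 2 or Ctrl_R −Dox replicate 2. The cause of these changes was not tested. Signal close to background limits the dim genes, since a probe not detected in a group gives a bound only.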

Other observations

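By chromosome, 10632 of the 11177 tested genes could be placed on GRCm38.p6. On the 19 autosomes between 8.76% and 14.4% of genes were higher and between 8.24% and 15.7% lower without Dox, with medians from −0.06 to 0.07. On the X chromosome 73 of 357 genes were higher (20.4%) and 33 lower (9.24%), with a median of 0.07. With Dox 15.1% of the X-linked genes were higher, against 5.10% to 10.0% on the autosomes. The X-linked genes with the largest fitted differences without Dox were Cxx1c and Dgkk, both not detected in Ctrl_R and at least 6.37-fold and at least 3.76-fold higher, Gpr23 (2.58), Chst7 (2.50) and Capn6 (2.48). These shares carry no test.

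Other motifs were counted in the promoters. The cAMP response element TGACGTCA stood in 2.22% of promoters of higher genes, 1.56% of those of lower genes and 2.86% of all; the ATF4 element TGATGCAA in 0.740%, 1.04% and 0.590%; the E-box CACGTG in 8.87%, 9.14% and 9.73%; the sterol element TCACCCCAC in 0.493%, 1.04% and 0.636%; and CCAAT in 33.1%, 38.2% and 37.7%. Both strands were searched, and no motif was tested.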
